A study of Mus musculus with 20 samples.

Results

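The change in kidney gene expression from control to *Pkd2* mutant was compared between male and female mice, using 20 of the 20 mice in the series. The quantity tested was the interaction of sex and genotype, which is the log2 change from control to mutant in males minus the log2 change from control to mutant in females. A positive value means that the male change lay above the female change, and a negative value means that it lay below. Sex was taken from the letter in the sex and litter group given for each mouse, and the 6 groups of sex and litter entered the model as a covariate. There were 5 controls and 5 mutants of each sex, with 1 library per mouse. Mutants carried floxed *Pkd2* alleles together with Pax8-rtTA and TetO-Cre, and controls lacked either the rtTA or the Cre module. All 4 groups received doxycycline (50 mg/kg, P27 to P29), and whole kidneys were taken at P125. Deletion was thus limited to tubule cells in which the *Pax8* promoter was active, while the RNA came from all cells of the kidney. In such bulk RNA, fewer cells of a type and less RNA per cell cannot be told apart.

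*Pkd2* encodes polycystin-2, a cation channel of the primary cilium of tubule cells, and its loss leads to fluid-filled cysts. In the mouse kidney, the proximal tubule differs strongly between the sexes: androgen maintains a male set of cytochromes P450, steroid-conjugating enzymes and organic anion transporters, and females express their own set of amino acid and organic anion transporters.

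Total counts per mouse lay between 11307741 and 19324073. The lowest total belonged to female mutant 4, whose library also detected 14850 genes against 16776 to 17724 in the other 19, while only 76 of its genes were seen at a single count, compared with 708 to 859 elsewhere. The leading results are therefore given with all 20 mice and without female mutant 4. *Xist* was at 462 CPM (counts scaled by edgeR to the normalized library size of each mouse) or more in every female and at most 0.439 CPM in every male, and the Y-linked *Ddx3y* was listed at 0 in every female, so no library went against its labelled sex. The litters were uneven across the groups: litter A held 3 male controls, 2 male mutants, 1 female control and 1 female mutant, and litter C held 1 mouse of each group. Litter B held 1 male control, 2 male mutants, 3 female controls and 3 female mutants. Leaving out the only control or mutant of a sex and litter group also takes the rest of that group out of the comparison. This holds for male control 4, female control 1, female mutant 1 and every mouse of litter C.

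*Pkd2*, the targeted gene, lies on chromosome 5 from 104459450 to 104505819 (GRCm38). It measured 272, 298, 250.4, 332 and 303 CPM in the 5 male controls and 109.7, 124, 109.7, 133 and 120.1 CPM in the 5 male mutants. Female controls had 193, 306, 291, 218 and 278 CPM, and female mutants had 150.2, 133, 94.8, 182 and 166 CPM. Mutants lay below controls without overlap in both sexes. The log2 change was −1.31 ± 0.155 (SE) in males and −0.82 ± 0.151 in females, and the interaction was −0.50 ± 0.214 (adjusted p = 1, edgeR quasi-likelihood test with Benjamini-Hochberg adjustment over all genes tested). Without female mutant 4 the interaction was −0.38 ± 0.206 (adjusted p = 0.771). In CPM, the mean of mutants minus that of controls was −172 ± 14.6 in males and −112 ± 26.6 in females with all 20 mice, a difference of −60.0 ± 30.3. The adjustment over all genes leaves a difference of this size undecided, so equal loss in the sexes was not shown. *Pkd1*, which encodes the partner protein polycystin-1, had log2 changes of 0.02 in males and 0.02 in females with all 20 mice.

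With all 20 mice, 14820 genes were tested for the interaction. At an adjusted p under 0.01, the threshold of the study, 0 genes passed (0% of those tested), and 1 gene passed at an adjusted p under 0.05 (0.00675%). At an unadjusted p under 0.05 there were 618 genes (4.17%), of which 372 had a male change above the female change (2.51%) and 246 had it below (1.66%). DESeq2's Wald test called 18 genes at an adjusted p under 0.01 in the same mice. Leaving out female mutant 4, 3 of 14960 genes passed at 0.01 (0.0201%) and 5 at 0.05 (0.0334%). There, 1039 genes had an unadjusted p under 0.05 (6.95%), 731 with the male change above (4.89%) and 308 with it below (2.06%). The side with more genes depended on the scaling, since with DESeq2 size factors in place of TMM factors the split was 269 above and 304 below with all 20 mice, and 570 above and 383 below without female mutant 4.

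The same side also changed in some fits with 1 mouse left out. With 1 mouse left out of the 20 at a time, the male change lay above in more genes than below in 17 of 20 cases. The order was turned without male control 3 (172 above, 349 below), without male control 5 (145 above, 332 below) and without male mutant 1 (230 above, 407 below). The total at an unadjusted p under 0.05 lay between 477 genes, without male control 5, and 1099 genes, without female mutant 3.

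**Figure D1:**
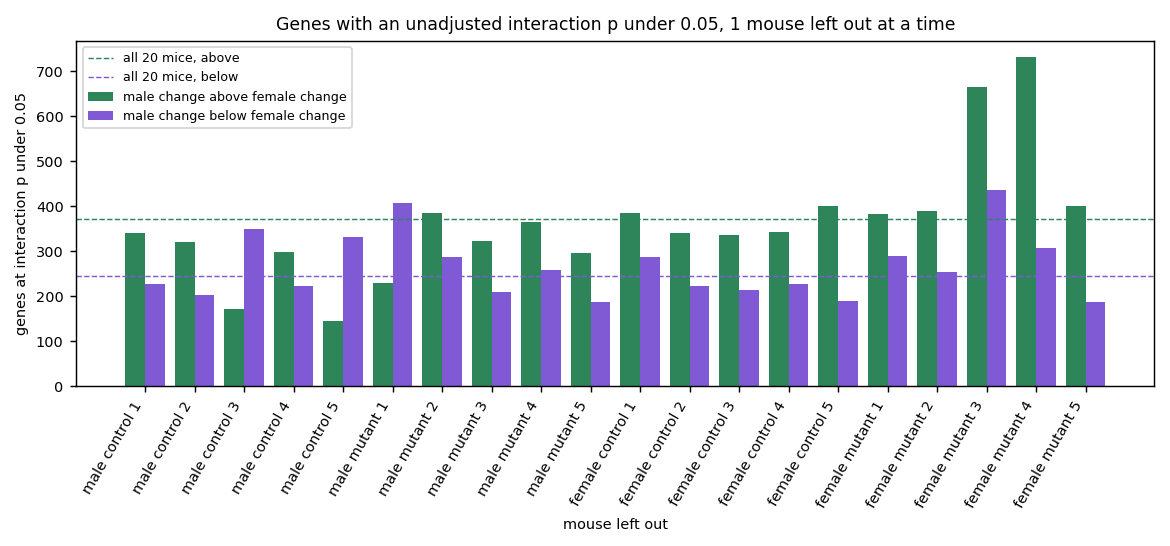
Number of genes (vertical axis) with an unadjusted interaction p under 0.05 when each mouse (horizontal axis) was left out of the fit of 20. Green bars count genes whose male change lay above the female change, purple bars those below, and dashed lines give the counts with all 20 mice (372 and 246). The purple bar is the taller for male control 3, male control 5 and male mutant 1, and the highest green bar, 731 genes, is that without female mutant 4.

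**Figure D2:**
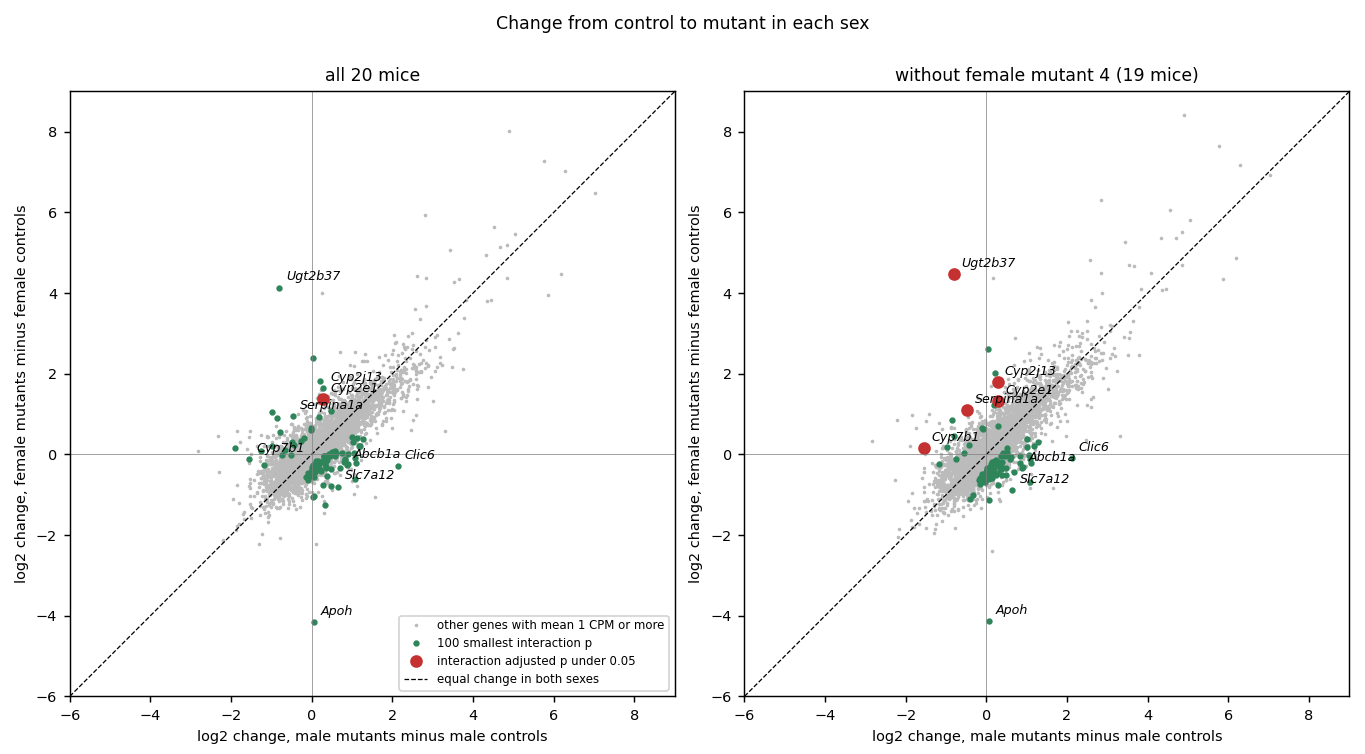
Log2 change from control to mutant in males (horizontal axis) and in females (vertical axis), for genes with a mean of at least 1 CPM, with all 20 mice on the left and without female mutant 4 on the right. Red points passed the interaction test at an adjusted p under 0.05, green points are the 100 genes of smallest interaction p, and the dashed line marks an equal change in both sexes. *Ugt2b37* lies far above the line at 4.14 in females and −0.80 in males with all 20 mice, and *Cyp7b1* joins the red points once female mutant 4 is left out.

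The gene of smallest interaction p with all 20 mice was *Cyp2e1* (chromosome 7, 140763739 to 140774987), a cytochrome P450 that oxidizes ethanol and other small molecules. Male controls had 1547, 1539, 1553, 1626 and 2073 CPM and male mutants 1591, 2345, 1929, 1762 and 2547 CPM. Female controls had 72.0, 61.9, 62.0, 57.7 and 156 CPM and female mutants 184, 157, 160.4, 181 and 342 CPM. Female mutants lay above female controls without overlap, the males overlapped, and in both female groups the single mouse of litter C was the highest. The log2 change was 1.37 ± 0.104 in females (adjusted p = 1.8e-06) and 0.29 ± 0.103 in males (adjusted p = 0.0750). The interaction was −1.08 ± 0.145 (adjusted p = 0.0135, edgeR), and −1.03 ± 0.139 without female mutant 4 (adjusted p = 0.00699).

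Within litters A, B and C, the interaction of *Cyp2e1* was −1.03, −1.27 and −0.83 on the log2 CPM scale, so it had one sign in each litter. It rested on the litter term: with no litter term its value was −1.04 with an adjusted p of 0.855, and with 3 litters in place of the 6 sex and litter groups the adjusted p was 0.172. With 1 of the 20 mice left out, 15 of 20 fits kept an adjusted p under 0.05, and the highest, 0.164, was without male control 4. The interaction is a difference of ratios. In CPM, the mean of male mutants exceeded that of male controls by 367 ± 206 (SE) and the mean of female mutants exceeded that of female controls by 123 ± 39.5, so in CPM the male difference was the larger by 244 ± 210.1.

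*Ugt2b37* (chromosome 5, 87240493 to 87254804) encodes a UDP-glucuronosyltransferase of the family that conjugates steroids and bile acids. Male controls had 125.4, 97.4, 111, 111 and 129 CPM and male mutants 95.0, 54.4, 56.4, 64.7 and 53.6 CPM. Female controls had 1.45, 0.818, 0.649, 1.37 and 1.22 CPM and female mutants 27.6, 15.8, 50.4, 1.98 and 3.64 CPM. Neither sex overlapped: every male mutant lay below every male control, and every female mutant lay above every female control. Female mutant 4 and the litter C mouse, female mutant 5, were the lowest of the female mutants.

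The log2 change of *Ugt2b37* was 4.14 ± 0.642 in females (adjusted p = 0.000992) and −0.80 ± 0.447 in males (adjusted p = 0.275). Its interaction was −4.94 ± 0.788 with all 20 mice (adjusted p = 0.0593) and −5.27 ± 0.538 without female mutant 4, where it had the smallest p of all genes (adjusted p = 0.000489). Within litters A, B and C it was −4.75, −4.42 and −2.76, and in litter B without female mutant 4 it was −5.67. Without female mutant 4, all 9 other settings and all 19 fits with a further mouse left out had an adjusted p under 0.01. With all 20 mice, 5 of 9 other settings had one under 0.05 for *Ugt2b37*. Of the 50-base words of its transcripts, 18.3% also occur in transcripts of other genes, mostly *Ugt2b5*, so some reads could have been split between them.

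*Ugt2b5*, a neighbour of the same family, had 2.86 to 4.05 CPM in male controls, 3.24 to 5.71 CPM in male mutants, 0.836 to 1.25 CPM in female controls and 1.73 to 6.58 CPM in female mutants. The female groups did not overlap and the male groups did. Its interaction was −1.61 ± 0.431 with all 20 mice (adjusted p = 0.607) and −1.82 ± 0.345 without female mutant 4 (adjusted p = 0.0872). It shares 41.7% of its 50-base words with other genes, *Ugt2b38* foremost, and its values are uncertain for that reason.

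*Cyp7b1* (chromosome 3, 18071950 to 18243338), the hydroxylase that inactivates oxysterols and some steroids, also had the male change below the female change, but here the change was in males. Male controls had 259, 286, 325, 265 and 359 CPM and male mutants 93.5, 83.6, 88.3, 119 and 136 CPM. Female controls had 4.29, 3.82, 3.24, 5.06 and 3.65 CPM and female mutants 4.14, 4.98, 4.61, 0.0863 and 4.11 CPM. Male mutants lay below every male control, while the female groups overlapped and female mutant 4 stood alone with 1 count of the gene.

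*Cyp7b1* fell in males with a log2 change of −1.55 ± 0.268 (adjusted p = 0.00196) with all 20 mice, and had −0.11 ± 0.342 in females (adjusted p = 0.881). The interaction was −1.43 ± 0.433 with all 20 mice (adjusted p = 0.859) and −1.71 ± 0.190 without female mutant 4 (adjusted p = 0.000798), where the female change was 0.16 ± 0.154. Its rank by interaction p moved from 70 to 2 when this 1 library was left out, and the interaction in litter B moved from −0.12 to −1.63, beside −1.66 in litter A and −1.57 in litter C. With female mutant 4 already left out, all 19 fits without a further mouse had an adjusted p under 0.01.

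*Cyp2j13* (chromosome 4, 96027534 to 96077546) belongs to the P450 epoxygenases of arachidonic acid. Male controls had 425, 482, 413, 451 and 554 CPM and male mutants 437, 578, 588, 608 and 675 CPM, which overlapped. Female controls had 0.923, 0.709, 1.12, 1.01 and 0.988 CPM and female mutants 3.33, 3.42, 4.30, 1.81 and 1.70 CPM, with no overlap. It rose in females with a log2 change of 1.65 ± 0.229 (adjusted p = 0.000545), and the male change was 0.28 ± 0.137 (adjusted p = 0.209). The interaction was −1.37 ± 0.268 with all 20 mice (adjusted p = 0.247) and −1.51 ± 0.228 without female mutant 4 (adjusted p = 0.0200). With a further mouse left out, 12 of 19 fits kept an adjusted p under 0.05, and the highest, 0.0767, was without female mutant 3. The adjusted p was 0.0732 with no litter term and 0.0538 with 3 litters. In DESeq2's Wald test it was 0.000849 with all 20 mice and 1.11e-06 without female mutant 4. Within litters the interaction was −1.52, −1.15 and −0.43. Mean levels of female mutants remained near 3 CPM against 465 CPM in male controls, and in CPM the difference between mutants and controls was 112 ± 46.4 in males and 1.96 ± 0.507 in females.

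*Serpina1a* (chromosome 12, 103853589 to 103863562) encodes an alpha-1-antitrypsin, an inhibitor of neutrophil elastase made chiefly in liver. Male controls had 14.9, 20.0, 13.6, 16.8 and 12.7 CPM and male mutants 14.1, 11.1, 11.9, 8.92 and 9.31 CPM. Female controls had 3.30, 2.51, 1.95, 3.52 and 5.32 CPM and female mutants 6.82, 6.66, 6.43, 2.59 and 8.52 CPM. Female mutant 4 lay among the controls, and the other female mutants lay above all of them. The interaction was −1.41 ± 0.308 with all 20 mice (adjusted p = 0.274) and −1.56 ± 0.242 without female mutant 4 (adjusted p = 0.0219), with changes there of −0.47 ± 0.159 in males and 1.09 ± 0.182 in females. With a further mouse left out, 11 of 19 fits kept an adjusted p under 0.05, and the highest, 0.177, was without male control 4. With 3 litters it was 0.0538, and DESeq2's Wald test gave no adjusted p without female mutant 4. With all 20 mice, 3 of 9 other settings had an adjusted p under 0.05, with 0.00679 in DESeq2's Wald test.

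The nearby *Serpina1b* had 0.132 to 0.709 CPM in female controls and 0.949 to 3.69 CPM in female mutants, with no overlap, and 6.95 to 12.02 CPM in male controls against 4.99 to 16.7 CPM in male mutants. Its interaction was −2.35 ± 0.546 with all 20 mice (adjusted p = 0.346) and −2.58 ± 0.484 without female mutant 4 (adjusted p = 0.0872). These genes are close copies: 57.6% of the 50-base words of *Serpina1a* and 29.5% of those of *Serpina1b* occur in other genes, so their counts are uncertain. *Alb*, the defining liver transcript, had a median of 19.3 CPM in female controls and 17.2 CPM in female mutants, and of 7.59 and 6.23 CPM in male controls and mutants. Male mutant 5 stood apart in *Alb* at 54.1 CPM, against at most 9.53 CPM in male controls, and female mutant 4 was the highest female at 29.8 CPM. The summed level of 16 liver genes ran from 489 to 618 CPM in male mutants and 526 to 632 CPM in male controls, and from 341 to 455 CPM in female mutants and 381 to 536 CPM in female controls. The part of liver transcripts in these interactions was not tested.

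**Figure D3:**
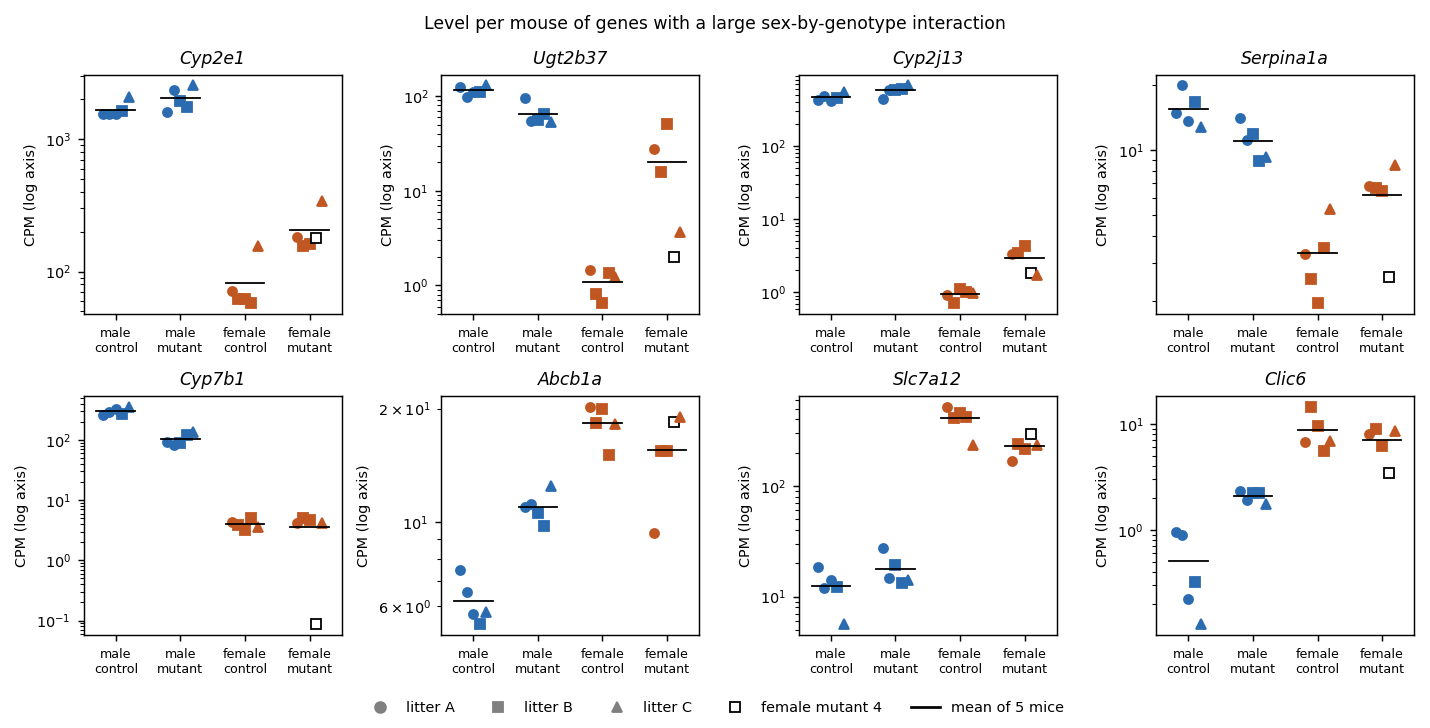
CPM of each mouse (vertical axes, log scale, each with its own range) in the 4 groups (horizontal axes), with symbols for litters, an open square for female mutant 4 and a line at the mean of 5 mice. In *Cyp2e1*, *Ugt2b37* and *Cyp2j13* every female mutant lies above every female control, while in *Cyp7b1* and *Ugt2b37* every male mutant lies below every male control, and in *Abcb1a* and *Clic6* every male mutant lies above every male control.

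The remaining genes with the male change below the female change missed an adjusted p of 0.05 in both edgeR fits. *Olfm4*, a secreted glycoprotein of epithelia and neutrophils, had 4.35 to 7.92 CPM in female controls and 11.5 to 20.7 CPM in female mutants, against 17.3 to 21.0 CPM in male controls and 20.9 to 26.1 CPM in male mutants. It rose in females (log2 1.43 ± 0.174, adjusted p = 0.000242), and its interaction was −1.15 ± 0.239 (adjusted p = 0.247) and, without female mutant 4, −1.03 ± 0.219 (adjusted p = 0.157), with −0.19, −1.53 and −1.13 within litters A, B and C. *Cyp24a1*, the enzyme that breaks down active vitamin D, had 146 to 262 CPM in male controls and 56.2 to 145 CPM in male mutants, with no overlap, and 39.8 to 354 CPM in female controls and 125.3 to 193 CPM in female mutants. The 354 CPM belonged to female control 5, the only female control of litter C, and the interaction of −1.75 ± 0.405 (adjusted p = 0.346) was −1.87 and −2.50 in litters A and B but 0.22 in litter C. Without female mutant 4 it was −1.70 ± 0.420 (adjusted p = 0.277).

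*Cyp4b1*, a fatty acid hydroxylase of the male proximal tubule, was looked at after its values were seen. Female controls had 182, 191, 91.7, 200.1 and 244.5 CPM and female mutants 410.1, 429, 351, 664 and 562 CPM, with no overlap. Male controls had 3890 to 4432 CPM and male mutants 3600 to 5684 CPM. Its interaction was −1.23 ± 0.287 with all 20 mice (adjusted p = 0.346) and −1.04 ± 0.249 without female mutant 4 (adjusted p = 0.248), and in DESeq2's Wald test on all 20 it had an adjusted p of 0.00679.

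Among genes with the male change above the female change, none passed an adjusted p of 0.05 in either edgeR fit. The closest were *Cnnm2* at 0.0575 without female mutant 4 and, with all 20 mice, *Abcb1a*, *Cachd1*, *Kcnk1*, *Abcb1b*, *Pla2g5* and *B4galt5*, all at 0.247. In DESeq2's Wald test on all 20 mice, these last genes had adjusted p values of 0.00666 to 0.00755. *Slc7a12* (0.00666), *Clic6* and *Abcc3* (0.00679 each) passed there too, as did genes with the male change below. Without female mutant 4, *Cnnm2* had 0.000180 in that test. For *Abcb1b*, *Pla2g5* and *Clic6* that test then gave no adjusted p, and the other settings gave none under 0.05. In the first set described here the larger change was in males. *Abcb1a* and *Abcb1b* encode P-glycoproteins, which pump drugs and steroids out of cells. *Abcb1a* had 7.47, 6.55, 5.71, 5.36 and 5.79 CPM in male controls and 10.97, 11.1, 10.6, 9.78 and 12.5 CPM in male mutants, and 20.2, 18.3, 20.0, 15.1 and 18.2 CPM in female controls and 9.34, 15.4, 15.4, 18.5 and 19.04 CPM in female mutants. The male groups did not overlap, the female groups did, and male mutants stayed below every female control.

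*Abcb1a* rose in males by 0.87 ± 0.161 (adjusted p = 0.00301) and had −0.27 ± 0.148 in females. The interaction was 1.15 ± 0.219 with all 20 mice and 1.22 ± 0.217 without female mutant 4 (adjusted p = 0.0764), and 1.85, 1.01 and 1.03 within litters A, B and C. *Abcb1b* rose in males from 10.0 ± 1.90 CPM (SD, n = 5) to 20.5 ± 4.14 and had 39.8 ± 3.48 and 41.1 ± 7.67 CPM in female controls and mutants, with an interaction of 1.02 ± 0.209 with all 20 mice and 1.07 ± 0.213 without female mutant 4. The 2 genes share 17.6% and 11.6% of their 50-base words with others, mainly each other, so reads of one may have been counted for the other.

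*Clic6*, a member of the chloride intracellular channel family, was detected at 0.952, 0.890, 0.225, 0.325 and 0.129 CPM in male controls and 2.32, 1.91, 2.23, 2.25 and 1.75 CPM in male mutants. Female controls had 6.73, 14.6, 9.61, 5.54 and 6.84 CPM and female mutants 7.98, 8.93, 6.18, 3.45 and 8.64 CPM. The males did not overlap and the females did. The interaction was 2.42 ± 0.562 with all 20 mice (adjusted p = 0.346), 2.20 ± 0.513 without female mutant 4 (adjusted p = 0.218), and 1.38, 3.05 and 2.55 within litters A, B and C. Male controls held 2 to 14 counts of the gene, so the ratio in males rests on few reads.

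*Gbp3*, an interferon-induced GTPase, rose in males from 9.29 ± 0.985 CPM to 20.0 ± 7.82 CPM (log2 1.10 ± 0.214, adjusted p = 0.00385), with 86.6 ± 21.3 and 79.7 ± 42.5 CPM in female controls and mutants and an interaction of 1.31 ± 0.286. *Foxred2*, an oxidoreductase of the endoplasmic reticulum, rose in males from 9.67 ± 1.95 to 15.9 ± 1.74 CPM, with 9.11 ± 1.05 and 7.34 ± 1.60 CPM in females and an interaction of 1.02 ± 0.219. *Cdhr2*, a protocadherin that links brush border microvilli, rose in males from 54.2 ± 9.57 to 82.4 ± 9.15 CPM, with 73.9 ± 11.3 and 75.9 ± 12.5 CPM in females and an interaction of 0.56 ± 0.158. Without female mutant 4 these interactions were 1.30 ± 0.305, 1.12 ± 0.205 and 0.67 ± 0.127. In each of these genes the 5 male mutants lay above the 5 male controls, and no interaction passed the adjustment in either edgeR fit. DESeq2's Wald test gave adjusted p values of 0.00679 for *Gbp3* and 0.00903 for *Foxred2* with all 20 mice. Without female mutant 4 it gave 0.00550 for *Gbp3* and 0.000870 for *Cdhr2*, which it did not call with all 20 mice. For *Foxred2* it then gave no adjusted p.

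In another set the larger change was in females. *Slc7a12*, an amino acid transporter known for its high level in the female proximal tubule, had 522, 409, 456, 421 and 236 CPM in female controls and 168, 241, 214, 295 and 232 CPM in female mutants. Male controls had 18.6, 12.01, 14.1, 12.3 and 5.597 CPM and male mutants 27.6, 14.8, 19.2, 13.2 and 14.1 CPM. In females the groups overlapped only through female control 5, the lowest control, and males overlapped too. The interaction was 1.44 ± 0.308 with all 20 mice (adjusted p = 0.267) and 1.52 ± 0.318 without female mutant 4 (adjusted p = 0.137), with 2.10, 1.16 and 1.33 within litters A, B and C. It fell in females by 0.88 on the log2 scale without female mutant 4 (adjusted p = 0.00897), and the male change was 0.64 ± 0.232 (adjusted p = 0.0703).

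*Kcnk1*, a potassium leak channel, had 179 ± 17.5 CPM in female controls and 124 ± 23.6 CPM in female mutants, with 39.9 ± 4.00 and 52.4 ± 10.51 CPM in males and an interaction of 0.90 ± 0.184 with all 20 mice and 0.89 ± 0.193 without female mutant 4. *Pla2g5*, a secreted phospholipase A2, fell in females from 18.2 ± 3.23 to 10.7 ± 0.917 CPM without overlap (log2 −0.77 ± 0.147, adjusted p = 0.00326) and had 8.07 ± 1.08 and 9.70 ± 1.72 CPM in males. *Slc16a13*, a monocarboxylate transporter, fell in females from 79.6 ± 10.2 to 54.2 ± 7.51 CPM without overlap and had 79.0 ± 6.16 and 81.1 ± 5.59 CPM in males. In both genes the male groups overlapped, and the interactions were 1.04 ± 0.214 for *Pla2g5* and 0.62 ± 0.137 for *Slc16a13* with all 20 mice (adjusted p = 0.247 and 0.283) and 1.04 ± 0.222 and 0.68 ± 0.132 without female mutant 4 (adjusted p = 0.159 and 0.0928).

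*Cnnm2*, which takes part in renal magnesium handling, had 53.3, 54.9, 51.5, 50.7 and 46.3 CPM in female controls and 34.8, 32.1, 33.9, 47.7 and 28.5 CPM in female mutants. Female mutant 4 was the only female mutant within the range of the controls. Males had 42.9 ± 4.61 and 42.2 ± 1.49 CPM, and the interaction moved from 0.52 ± 0.146 (adjusted p = 0.753) to 0.64 ± 0.109 (adjusted p = 0.0575) without that mouse. *Folr1*, the folate receptor of the proximal tubule, had 342 CPM in female mutant 4 against 204 to 247 CPM in the other female mutants and 294 to 440.1 CPM in female controls. Its interaction was 0.57 ± 0.194 (adjusted p = 0.965) with all 20 mice and 0.74 ± 0.137 (adjusted p = 0.0832) without it.

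*Fbxo9*, an F-box subunit of a ubiquitin ligase, had 58.5 to 64.4 CPM in female controls and 43.8 to 57.1 CPM in female mutants without overlap, and its interaction was 0.45 ± 0.112 with all 20 mice and 0.52 ± 0.0938 without female mutant 4. *Cachd1* and *B4galt5*, a galactosyltransferase of glycolipid synthesis, had changes of opposite sign: 0.34 ± 0.0948 and 0.35 ± 0.102 in males, and −0.32 ± 0.0913 and −0.33 ± 0.0994 in females, with interactions of 0.66 ± 0.132 and 0.68 ± 0.143 with all 20 mice and 0.69 ± 0.134 and 0.72 ± 0.144 without female mutant 4. All 5 female mutants lay below all 5 female controls for *Cachd1*, with 29.3 to 37.5 CPM against 40.1 to 45.1 CPM.

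*Apoh*, a plasma glycoprotein, stood out in the plot of changes by sex and was looked at for that reason. It had 9.90 to 14.5 CPM in male controls and 9.04 to 15.6 CPM in male mutants, and 2, 6, 1, 1 and 1 counts in female controls against 0 counts in each of the 5 female mutants. Counts this low in both female groups give no usable ratio.

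**Figure D4:**
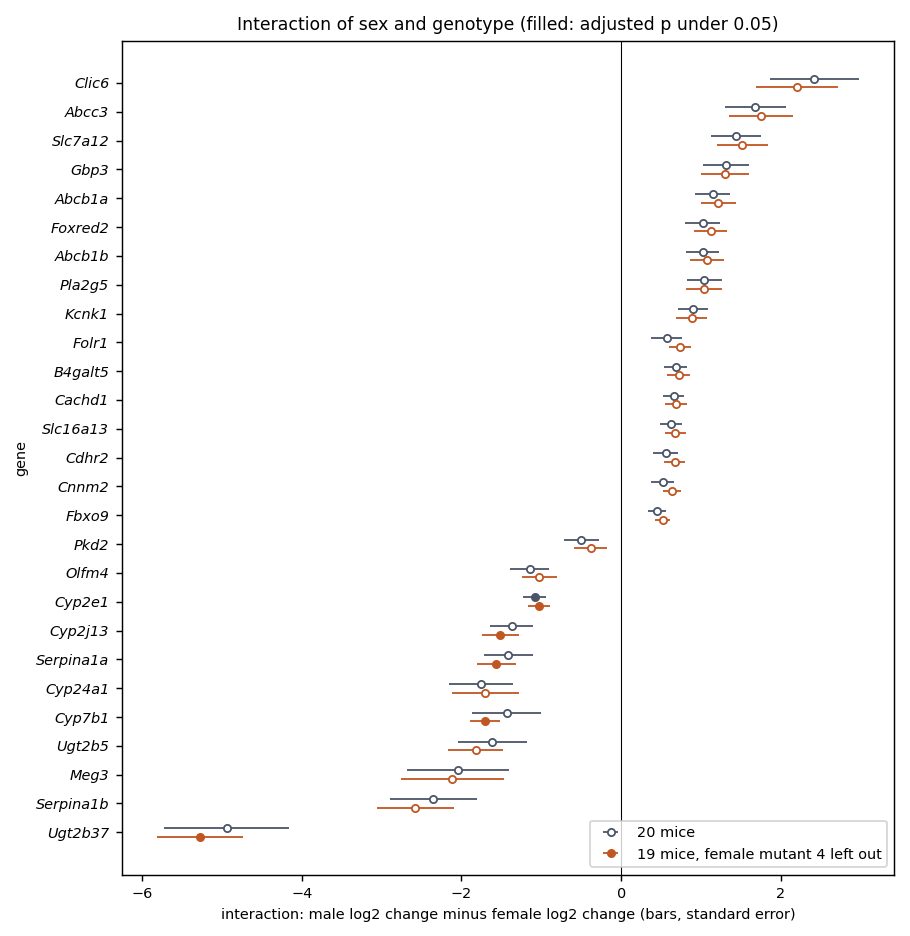
Interaction (horizontal axis, male log2 change minus female log2 change) with its standard error for the leading genes (vertical axis), with all 20 mice in grey and without female mutant 4 in orange. Filled points passed an adjusted p of 0.05 in edgeR: *Cyp2e1* in both fits, and *Ugt2b37*, *Cyp7b1*, *Cyp2j13* and *Serpina1a* without female mutant 4, all of them negative.

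Over the 100 genes of smallest interaction p with a mean of at least 1 CPM, the male change lay above the female change in 73 with all 20 mice and in 81 without female mutant 4, and 60 genes were in both sets. The median size of the interaction was 0.66 and 0.63 on the log2 scale, against 0.13 and 0.15 over all genes tested. In the fit lacking female mutant 4, a change of at least 0.5 was seen in males alone for 23 of the 100 genes (17 higher and 6 lower in mutants) and in females alone for 26 (10 higher and 16 lower). It was seen in both sexes with opposite signs for 4 genes and in both sexes with the same sign for 0, and 47 genes had a smaller change than 0.5 in either sex. The signs of the male and female changes differed in 71 of the 100 genes. These genes were chosen by the interaction, so the pattern describes them and was not tested.

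The gene lists were read against the share of all genes tested. Without female mutant 4, mutants differed from controls at an adjusted p under 0.01 in males for 5.55% of genes upward and 2.04% downward, and in females for 7.1% upward and 4.45% downward. With all 20 mice these shares were 3.3% and 1.36% in males and 2.94% and 1.59% in females. For an unadjusted interaction p under 0.05, the shares were 4.89% above and 2.06% below without female mutant 4, and 2.51% and 1.66% with all 20 mice. The median interaction of all genes was 0.03 with all 20 mice and 0.04 without female mutant 4.

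The list counts of interactions given below come from edgeR and moved with the model. When kidney weight as a percentage of body weight (KBW) was added as a covariate, 1287 genes had an unadjusted interaction p under 0.05 with the male change above and 900 with it below without female mutant 4. KBW itself differed by genotype, at 0.555 to 0.896% in controls and 0.836 to 2.15% in mutants. Changes in that fit are therefore changes at equal KBW, not the plain changes from control to mutant given elsewhere. Read in this way, the male change lay below in 19 of 24 macrophage markers, 15 of 27 tubule injury genes, 14 of 37 matrix genes, 14 of 36 chemokine genes, 8 of 21 lymphocyte markers and 7 of 30 interferon response genes. It lay above in 26 of 37 proximal tubule transporters and brush border genes, 18 of 45 genes of fatty acid oxidation, 15 of 30 organic ion transporters and 8 of 25 thick ascending limb and distal convoluted tubule genes. The corresponding counts with all 20 mice and KBW added were 18, 15, 14, 13, 6 and 6 below and 20, 17, 15 and 6 above, with 1 gene fewer tested for matrix, chemokines and lymphocytes. Over all genes, that fit had 1032 above and 691 below. With voom, which weights each library by its quality, the counts without female mutant 4 were 17 above for the proximal tubule list, 10 above for the thick ascending limb list, 10 below for chemokines and 5 below for tubule injury, beside 1591 above and 801 below over all genes.

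Of 20 androgen-responsive and male-biased tubule genes, 5 had an interaction with an unadjusted p under 0.05 and the male change below the female change, in both fits: *Cyp4b1*, *Cyp2e1*, *Cyp2j13*, *Ugt2b37* and *Cyp7b1*. In the other direction there were 0 with all 20 mice and 1 without female mutant 4, *Slc22a30*, an organic anion transporter with 13.8 CPM on average in female controls and 7.04 CPM in female mutants without female mutant 4. The median interaction of the list was −0.01 and −0.02, so the list as a whole lay close to the median of all genes. The count below stayed at 5 or 6 in each fit with 1 mouse left out. The 5 genes did not move alike, since *Cyp7b1* fell in males and the other 4 had their larger change in females.

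The female-biased tubule list had 5 genes, of which *Slc7a12*, *Prlr* and *Abcc3* had an unadjusted p under 0.05 with the male change above, in both fits. *Prlr*, the prolactin receptor, had 449.7, 355, 436, 363 and 324 CPM in female controls and 146, 256, 208, 311 and 283 CPM in female mutants, without overlap, and 28.1 ± 12.5 and 27.6 ± 12.004 CPM in male controls and mutants. *Abcc3*, an exporter of glucuronides and bile acids, had 156 ± 39.1 and 103 ± 22.9 CPM in females and 2.86 ± 1.15 and 6.46 ± 3.26 CPM in males. The interaction was 0.77 ± 0.322 for *Prlr* and 1.68 ± 0.382 for *Abcc3* with all 20 mice (adjusted p = 1 and 0.346) and 0.87 ± 0.327 and 1.75 ± 0.397 without female mutant 4. The median male change of this list was 0.54 and the median female change −0.68 without female mutant 4.

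Of 30 kidney cytochromes P450, 6 had the male change below and 1 above without female mutant 4, and 7 and 1 with all 20 mice. The lists overlap: *Cyp4b1*, *Cyp2e1*, *Cyp2j13* and *Cyp7b1* here, and *Ugt2b37* below, were already counted among the male-biased genes. *Prlr*, *Abcc3* and *Slc22a30* are also counted again in later lists. The one above was *Cyp2d9*, a male-biased steroid hydroxylase, with 33.2 CPM on average in female controls, 16.6 CPM in female mutants, and 255 and 254.5 CPM in male controls and mutants. *Cyp2a5*, a coumarin hydroxylase, averaged 48.1 CPM in female controls, 117 CPM in female mutants, and 204 and 245 CPM in male controls and mutants. Among 14 UDP-glucuronosyltransferases tested, 3 had the male change below (*Ugt2b5*, *Ugt2b37* and *Ugt8a*) in both fits. Above there were 2 with all 20 mice and 4 without female mutant 4, of which *Ugt1a10* had 9.13 CPM in female controls and 4.23 CPM in female mutants.

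Of 37 proximal tubule transporters and brush border genes, 8 had an unadjusted p under 0.05 and the male change above without female mutant 4, and 0 had it below, beside 4.89% and 2.06% of all genes. With all 20 mice the counts were 1 and 0. The median change without female mutant 4 was −0.16 in males and −0.41 in females, and 3 members in males and 12 in females fell at an adjusted p under 0.01. In the fit of all mice 2 in males and 3 in females fell, so the higher female count rested on leaving out that library. *Ace*, which converts angiotensin, had 184, 146, 157, 162 and 192 CPM in female controls and 99.6, 96.8, 102, 124 and 112 CPM in female mutants, without overlap, and 222 ± 35.6 and 183 ± 33.1 CPM in males. *Kl*, the co-receptor of a phosphaturic hormone, had 933 CPM in female mutant 4, within the 755 to 1038 CPM of female controls, and 492 to 684 CPM in the other female mutants.

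Summed over this list, female mutant 4 had 33170 CPM, within the range of female controls (30180 to 36700 CPM), while the median of female mutants was 23400 CPM. Its kidney weight was 0.836% of body weight, the lowest of the 10 mutants. The number of proximal tubule genes above also moved when a further mouse was left out besides female mutant 4. It was 18 without male mutant 1, 14 without female mutant 2 and 12 without female mutant 5 or female control 5. It was 5 without male control 5 or male mutant 5. Over all genes, the counts above in these fits were 1036, 808, 1034, 1026, 527 and 524, in the same order. No adjusted p of the list was under 0.05 without female mutant 4.

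Of 30 organic ion transporters, 8 had the male change above and 0 below without female mutant 4, and 3 and 0 with all 20 mice. *Slc22a12*, the urate exchanger of the apical membrane, had 1101, 924, 963, 948 and 1187 CPM in female controls and 489, 573, 350.1, 692 and 529 CPM in female mutants. Male controls had 2075, 1976, 2466, 2082 and 2135 CPM and male mutants 1470, 1789, 1502, 1391 and 1858 CPM. Mutants lay below controls in both sexes, and the log2 change was −0.40 ± 0.149 in males and −0.95 ± 0.147 in females, with an interaction of 0.55 ± 0.208 (adjusted p = 1) with all 20 mice and 0.69 ± 0.174 (adjusted p = 0.280) without female mutant 4. The list's count above was 12 without male mutant 1 as well, and 5 without any of female control 1, male mutant 2, female mutant 1, female mutant 3, male control 5 or male mutant 5. Over all genes, 1036 were above without male mutant 1. In the fits with 5 there were from 524, without male mutant 5, to 1127, without female mutant 3.

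Of 45 genes of fatty acid oxidation and ketone metabolism, 2 had the male change above with all 20 mice and 4 without female mutant 4, with 0 below in both. *Cd36*, which takes up long-chain fatty acids, fell in females from 266, 197, 214, 234 and 191 CPM to 146, 149, 143, 128 and 136 CPM, without overlap (log2 −0.64 ± 0.108, adjusted p = 0.00167). In males it had 789 ± 54.3 and 746 ± 158 CPM, and the interaction was 0.56 ± 0.154 (adjusted p = 0.715) with all 20 mice and 0.53 ± 0.156 without female mutant 4. *Etfdh*, which passes electrons from fatty acid oxidation to the respiratory chain, had 233 ± 21.8 and 169 ± 20.5 CPM in females and 286 ± 12.4 and 251 ± 35.6 CPM in males, with interactions of 0.29 ± 0.134 and 0.35 ± 0.123 in these fits. The count above was 13 without male mutant 1 and 15 without female mutant 2, 7 without female mutant 5 or female control 5, and 2 without male control 2, male mutant 4, male control 5 or male mutant 5, each with female mutant 4 also left out. Over all genes, the counts above in these fits were 1036, 808, 1034, 1026, 672, 698, 527 and 524, in the same order.

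The next lists held mostly genes that were higher in mutants of both sexes, and their interaction counts come from the edgeR fit with sex and litter groups. Of 48 mitotic cell cycle genes, 42 in males and 38 in females were higher in mutants at an adjusted p under 0.01 without female mutant 4, and the interaction had an unadjusted p under 0.05 in 2 above and 1 below. In the fit of all mice 38 and 28 rose and the interaction counts were 2 and 0, but without female mutant 3 in place of female mutant 4 there were 14 above. Over all genes, 664 were above in that last fit. *Ect2*, which drives cytokinesis, rose in males from 6.40 ± 1.05 to 15.2 ± 5.17 CPM and had 12.5 ± 2.52 and 14.4 ± 3.07 CPM in females, with an interaction of 0.97 ± 0.251 (adjusted p = 0.551) with all 20 mice. Of 24 macrophage markers, 20 in males and 21 in females rose, and 0 had an unadjusted interaction p under 0.05 without female mutant 4 (edgeR). There was 1 above in DESeq2's Wald test, 1 above and 3 below in voom, and 4 below in edgeR when male mutant 1 was also left out. Including female mutant 4, 13 markers in males and 9 in females rose, and 1 interaction was above and 0 below. The median change of the macrophage list was 1.66 in both sexes. Of 37 extracellular matrix and myofibroblast genes, 23 and 26 rose without female mutant 4, and 15 and 9 of 36 with all 20 mice. The interaction had an unadjusted p under 0.05 in 1 of them without female mutant 4, *Dcn*, a proteoglycan of connective tissue, at −0.63 ± 0.226, and in 4 below without male mutant 1 as well. Over all genes, 517 were below in that last fit.

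Of 27 genes of tubule injury tested, 15 in males and 22 in females rose without female mutant 4, and 13 in males and 10 in females with all 20 mice, so the order of the sexes turned on that library. The interaction had an unadjusted p under 0.05 in 1 gene in both fits, *Il34*, a growth factor of macrophages, and in 6 below when male mutant 1 was also left out. *Il34* had 20.1 to 29.8 CPM in male controls and 41.0 to 74.7 CPM in male mutants, and 5.18 to 9.04 CPM in female controls and 13.6 to 36.8 CPM in female mutants, with no overlap in either sex and an interaction of −0.74 ± 0.344 (adjusted p = 1) with all 20 mice and −0.84 ± 0.340 without female mutant 4. Of 36 chemokine genes tested without female mutant 4, 3 had the male change below and 1 above. The count below was 10 without male mutant 1, 6 without female mutant 5 or female control 5, 5 without male control 2, and 2 without female control 1, male mutant 2, female mutant 1, male control 5 or male mutant 5. Over all genes, the counts below in these fits were 517, 324, 322, 287, 311, 335, 313, 235 and 238, in the same order. *Cxcl2*, a neutrophil attractant, was listed at 0 in each female control and in female mutant 4, and had 1.12 to 3.12 CPM in the other female mutants, against 0 to 0.0812 CPM in male controls and 0.508 to 3.28 CPM in male mutants.

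Of the T and B lymphocyte markers, an interaction with an unadjusted p under 0.05 and the male change below was seen in 5 of 21 tested without female mutant 4 and in 1 of 20 with all mice. That count was 3 when male control 4 was also left out, where 300 of all genes were below. The median change was 0.53 in males and 1.20 in females. *Mzb1*, a chaperone of plasma cells, had 1.98, 1.96, 1.47, 3.16 and 2.96 CPM in female controls and 5.05, 7.50, 6.03, 4.66 and 4.41 CPM in female mutants, with no overlap. Males had 2.04 ± 0.444 and 2.55 ± 0.884 CPM, which overlapped, and the interaction was −1.08 ± 0.368 (adjusted p = 0.965) with all 20 mice and −1.14 ± 0.363 without female mutant 4. Of its 50-base words, 53.5% lie in transcripts of another gene, so reads may be shared. *Cd79a*, part of the B cell receptor, was listed at 0 in female mutant 4 and had 1.88 to 3.44 CPM in the other female mutants against 0.792 to 1.49 CPM in female controls and 1.06 to 1.87 CPM in male mutants. The summed level of the list was 94.4 CPM in female mutant 4, the lowest female mutant, against a median of 249.5 CPM in female mutants, 141 CPM in male mutants and 92.6 to 93.1 CPM in controls of either sex.

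**Figure D5:**
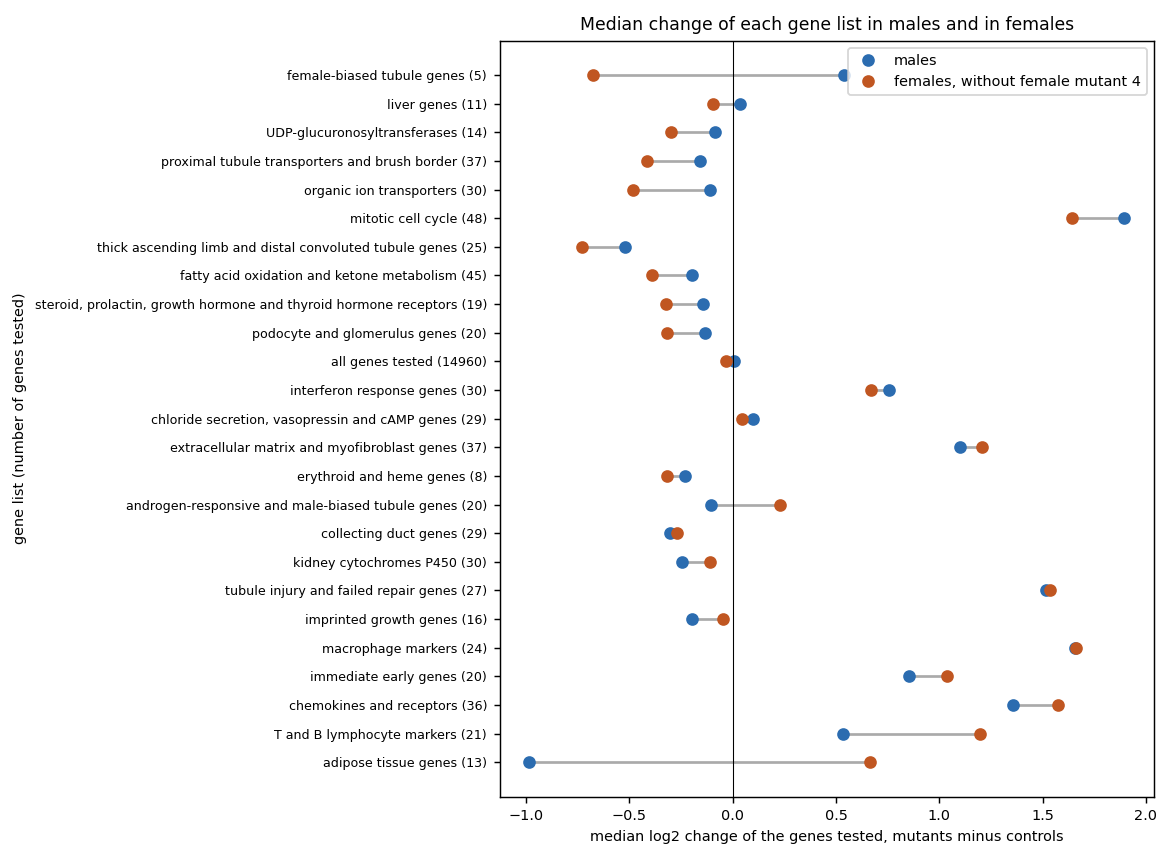
Median log2 change from control to mutant (horizontal axis) in males (blue) and in females without female mutant 4 (orange) for each gene list (vertical axis, number of genes tested in parentheses), ordered by the median interaction. Mitotic, macrophage and injury lists lie near 1.5 or above in both sexes, the 5 female-biased tubule genes lie at 0.54 in males and −0.68 in females, and proximal tubule genes and organic ion transporters lie lower in females than in males.

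The other lists are given by their counts without female mutant 4, beside 4.89% of all genes above and 2.06% below. A count of 1 above in a list of 25 to 30 genes is near that share. An interaction with an unadjusted p under 0.05 was seen in 1 of 25 thick ascending limb and distal convoluted tubule genes (*Umod*, above), 1 of 29 collecting duct genes (*Scnn1a*, above), 2 of 20 podocyte and glomerulus genes (*Plvap* and *Pecam1*, above), 1 of 30 interferon response genes (*Gbp3*), 3 of 19 hormone receptors (*Prlr*, *Thra* and *Hnf4a*, above) and 3 of 29 chloride and cAMP genes (*Clic5*, *Clic6* and *Pde1a*, above). Of 11 liver genes tested, 3 were above (*Apoa1*, *Apoc3* and *Fgb*) and 1 below (*Serpina1a*). Including female mutant 4, the counts were 1 (*Umod*), 0, 3 (with *Kdr*), 1, 2 and 1 in the order of these lists. The liver counts, 3 above and 1 below, held in both fits. In edgeR, 0 of 20 immediate early genes, 0 of 9 sex chromosome genes, 0 of 3 adrenal genes and 0 of 1 pancreas gene tested had an interaction at that threshold in either fit, while voom had 4 immediate early genes below and 1 sex chromosome gene above without female mutant 4. *Umod*, which encodes a urinary protein, had −0.27 ± 0.0987 in males and −0.57 ± 0.096 in females with all 20 mice, and its mutants lay below controls in both sexes. *Hnf4a*, a transcription factor of proximal tubule and liver, had 912 CPM in female mutant 4 and 449 to 751 CPM in the other female mutants against 729 to 869.6 CPM in female controls. *Pde1a*, a cyclic nucleotide phosphodiesterase, had 129.6 CPM in female mutant 4, 71.9 to 86.5 CPM in the other female mutants and 102 to 113 CPM in female controls.

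Among 16 imprinted growth genes tested, 2 had the male change below without female mutant 4. *Meg3*, a maternally expressed long noncoding RNA, had 1.54, 1.65, 0.977, 1.70 and 1.67 CPM in male controls and 0.0565, 0.684, 0.459, 0.594 and 0.395 CPM in male mutants, without overlap, while female controls had 0.792 to 2.01 CPM and female mutants 0.660 to 3.14 CPM. Its interaction was −2.04 ± 0.640 with all 20 mice (adjusted p = 0.895), −2.11 ± 0.642 without female mutant 4, and −2.54, −1.39 and −1.61 within litters A, B and C.

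*Car3*, a carbonic anhydrase abundant in fat and muscle, had 48.8 to 98.2 CPM in male controls and 1.81, 11.4, 4.33, 46.8 and 7.96 CPM in male mutants, without overlap. Female controls had 22.3, 16.9, 87.0, 9.77 and 72.1 CPM and female mutants 6.71, 5.04, 289, 9.49 and 6.76 CPM. The mice with the highest adipocyte transcripts were also high in *Car3*: *Adipoq* reached 40.3 CPM in female mutant 3, 12.6 CPM in female control 3, 5.36 CPM in male control 4 and 5.22 CPM in male mutant 4, each the highest of its group, and was listed at 0 in at least 1 mouse of every group. The interaction of *Car3* was −2.92 ± 1.59 (adjusted p = 1) with all 20 mice and −3.15 ± 1.56 without female mutant 4, and the part of adipose tissue in it was not tested. Of 13 adipose genes tested, 0 had an unadjusted interaction p under 0.05 without female mutant 4 (edgeR).

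KBW was compared between the sexes in percentage points and without a litter term, unlike the genes. The mean of mutants exceeded that of controls by 0.989 percentage points in males and by 0.568 in females, a difference of 0.421 (two-sided exact permutation test over 63504 relabellings of genotype within sex, p = 0.329). Without female mutant 4 the difference was 0.335 (exact permutation test, p = 0.454). With log2 KBW and all 20 mice it was 0.355 (exact permutation test, p = 0.538). These permutation tests left the genotype effect in the relabelled values. They therefore tested for no genotype effect in either sex, and cannot decide whether that effect differed between the sexes. The average genotype effect was then subtracted before relabelling, a choice made after seeing the data. With it subtracted, the difference of 0.421 had p = 0.0419 in the permutation test.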

How the data were processed

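Kidney RNA of 20 mice was sequenced, and the authors deposited whole-number read counts per gene symbol, not normalized. The submitters' processing notes name fastp 0.23.2 for trimming, STAR 2.7.10b for alignment and the build mm10. The counting tool, annotation and strandedness are not given in the sources used here. All columns were mapped to mice by title. A second deposited file was not used.

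Counts were normalized by TMM and filtered with filterByExpr, leaving 14820 of 24411 genes, and tested with the quasi-likelihood test of edgeR 4.0.16 in R 4.3.3, with the 6 sex and litter groups as covariate, leaving 12 residual degrees of freedom, and Benjamini-Hochberg adjustment. The SE of a log2 value was its size divided by the square root of F. CPM used TMM library sizes, and log2 CPM within litters a prior count of 2. "Rose" and "fell" are used at an adjusted p under 0.01. The median SE of the interaction was 0.198 with 20 mice and 0.189 with 19. Total counts per mouse limit what low genes can show.

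Named genes were, in each of the fits, the 7 of smallest p in each direction with a mean of at least 1 CPM, every gene at an adjusted p under 0.05, at most 2 members of each of 27 gene lists with p under 0.05 without female mutant 4, *Pkd2*, *Pkd1*, *Clic6*, *Meg3*, *Car3*, *Ugt2b37*, *Xist* and *Ddx3y*. Further list members were named after their values were seen. The comparison, genes and lists were chosen with earlier results of these data known. The lists were written from general knowledge, and 2 of their genes are not reported here and were left out of list counts and medians. Coordinates and shared 50-base words come from GENCODE M21 (GRCm38). Alternatives were DESeq2 1.42.0 (size factors or Wald test), voom with quality weights of limma 3.58.1, robust spread, other filters and covariates, and each mouse left out. The procedure was tested on simulated data.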

Additional observations from a re-analysis of the deposited data

Results flagged for a closer look

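In groups of 5 mice, a value was listed when its gap to the nearest mouse took up more of the group's range than Dixon's test allows, which chance gives for about 1 in 20 groups. Of 208 groups tested, 21 were listed. The mouse that stood apart for *Cyp2e1* was male control 5 at 2073 CPM, female control 5 at 156 CPM and female mutant 5 at 342 CPM, all of litter C. Female control 5 also stood apart for *Cyp24a1* at 354 CPM and *Folr1* at 440.1 CPM, and male control 5 for *Ccl28* at 28.8 CPM and for KBW at 0.896%. Male mutant 1 stood apart for *Ugt2b37* at 95.0 CPM, *Hnf4a* at 724 CPM and *Il34* at 74.7 CPM. Female mutant 4 stood apart for *Cyp7b1* at 0.0863 CPM and *Pde1a* at 129.6 CPM. Male mutant 4 did so for *Ccl28* at 54.1 CPM and *Car3* at 46.8 CPM, female mutant 3 for *Car3* at 289 CPM and female mutant 1 for *Gbp3* at 155 CPM. The others were *Cachd1* at 40.2 CPM and *Cxcl2* at 0 CPM in male control 2, *Abcc3* at 4.87 CPM in male control 4, *Umod* at 3104 CPM in male mutant 2 and *Meg3* at 0.977 CPM in male control 3.

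The effect of genotype differed between the sexes by edgeR's interaction test at an adjusted p under 0.05 for 5 genes. The log2 interaction of *Cyp2e1* was −1.08 with all 20 mice and −1.03 without female mutant 4. Without that mouse it was −5.27 for *Ugt2b37*, −1.51 for *Cyp2j13*, −1.56 for *Serpina1a* and −1.71 for *Cyp7b1*. The calls of *Cyp2j13* and *Serpina1a* held in 12 and 11 of 19 fits with a further mouse left out.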

How the results depend on the processing

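Counts of genes depended on the test. With all 20 mice, the counts at adjusted p under 0.01, adjusted p under 0.05 and unadjusted p under 0.05 (0, 1 and 618) became 18, 22 and 646 with DESeq2's Wald test, 2, 8 and 1874 with voom, 1, 16 and 1723 with KBW added, and 2, 2 and 692 with no filter. Requiring 10 counts in every mouse gave 1 gene at 0.01, and sex plus 3 litters gave 0 at 0.05. Without female mutant 4 they (3, 5 and 1039) became 27, 59 and 991 with DESeq2's Wald test, 11, 104 and 2187 with KBW added and 23 at 0.05 and 2392 unadjusted with voom. No filter gave 5 at 0.01, and sex plus 3 litters gave 2 at 0.05. With each mouse left out in turn, the counts were 0 to 3, 0 to 5 and 477 to 1099 with all 20 mice, and 2 to 5, 2 to 19 and 762 to 1609 without female mutant 4. Of the genes with an unadjusted p under 0.05, 60.19% with all 20 mice and 70.36% without female mutant 4 had the male change above, against 46.95% and 59.81% with DESeq2 size factors. In CPM in place of log2, the interaction of *Cyp2e1* turned positive, at 244 CPM with 20 mice and 238 CPM without female mutant 4. That of *Cyp2j13* did so too, at 110.4 and 110.1 CPM. Other named genes also turned sign, among them *Il34*, at 6.23 ± 7.94 and 4.28 ± 8.34 CPM in these fits. *Slc22a12* turned negative, at −46.9 ± 146 and −5.48 ± 143 CPM. This alternative was chosen after seeing the data. The interaction of *Pkd2* lay between −0.63 and −0.38 with each mouse left out and between −0.52 and −0.28 under the other settings, and without female mutant 4 between −0.54 and −0.21 and between −0.43 and −0.27, and that of KBW between 0.305 and 0.536. Subtracting the average genotype effect left the KBW difference at 0.421 with a permutation p of 0.0419. The cause of these differences was not tested. Litter C had 1 mouse per group, which limits the within-litter values. No paired analysis was possible because the labels carry no replicate numbers, so numbers in accession order pair no mice, and litter was already in the model.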
